A study of Mus musculus with 6 samples.

Results

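The EMILIN/multimerin genes Mmrn1, Mmrn2, Emilin1 and Emilin2 were followed in RNA-seq of mouse bone marrow cells that the labels call LT-HSCs, the long-term haematopoietic stem cells. The members were chosen by gene name, and all 4 were found among the 55487 genes of the deposited table. The study set 3 libraries of Mmrn1-high cells against 3 libraries of Mmrn1-low cells. Both groups carried the same Mmrn1-GFP genotype, in which GFP stands for green fluorescent protein, and no treatment was named. The sources used here give no strain or age of the mice, no surface gate and no design of the reporter allele. Nothing in the labels says that replicates came from separate mice or sorts. The p-values therefore speak only for the scatter of these 6 libraries, and that scatter could be technical.

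Multimerins and EMILINs are secreted glycoproteins of the extracellular matrix that share an amino-terminal EMI domain, long coiled coils and a carboxy-terminal C1q-like domain. Multimerin 1 is stored in platelet alpha-granules, where it binds coagulation factor V, and is also made by endothelial cells. Multimerin 2 is an endothelial matrix protein that binds CD93, CLEC14A and VEGF-A. EMILIN-1 lies in elastic fibres, is bound by the integrins alpha4-beta1 and alpha9-beta1 and restrains the processing of pro-TGF-beta. EMILIN-2 is its close relative and in human cells binds death receptors for TRAIL.

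In the GRCm38 build Mmrn1 (ENSMUSG00000054641) lies on the plus strand of chromosome 6, from 60924976 to 60989378. Mmrn2 (ENSMUSG00000041445) lies on the plus strand of chromosome 14, from 34375465 to 34404287. Emilin1 (ENSMUSG00000029163) spans 30913402 to 30921277 on the plus strand of chromosome 5, and Emilin2 (ENSMUSG00000024053) spans 71252172 to 71311978 on the minus strand of chromosome 17. All 4 are protein-coding in GENCODE M21, with the coordinates of the deposited table, and 0 of the 4 share exon bases with another annotated gene.

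Because the Mmrn1 reporter defines the groups, the 250 bases before the RefSeq start of Mmrn1 are shown, beside those before a RefSeq start of Emilin2, the member whose level differed least. The Mmrn1 window is chr6:60944067-60944316 (plus strand) and the Emilin2 window is chr17:71311012-71311261 (minus strand), both GRCm38.p6. Capitals mark GATAA, the core bound by GATA factors, and GGAA, the core bound by ETS factors, on either strand (TTATC and TTCC on the other strand).
Mmrn1: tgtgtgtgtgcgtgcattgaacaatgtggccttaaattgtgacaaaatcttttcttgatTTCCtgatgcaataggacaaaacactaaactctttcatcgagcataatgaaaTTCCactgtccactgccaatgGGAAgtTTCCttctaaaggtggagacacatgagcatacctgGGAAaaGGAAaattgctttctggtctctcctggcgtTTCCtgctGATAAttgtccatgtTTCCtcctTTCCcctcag
Emilin2: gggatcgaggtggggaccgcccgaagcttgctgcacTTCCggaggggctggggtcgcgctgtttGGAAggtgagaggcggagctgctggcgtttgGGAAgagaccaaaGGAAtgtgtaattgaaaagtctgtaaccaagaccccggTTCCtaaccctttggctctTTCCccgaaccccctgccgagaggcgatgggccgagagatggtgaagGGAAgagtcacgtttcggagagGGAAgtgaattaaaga
The Mmrn1 window held 1 GATAA and 9 GGAA cores, and the Emilin2 window held 0 and 8. Among 32851 RefSeq mouse windows of the same length, 22.6% held GATAA and 93.4% held GGAA on either strand. The Mmrn1 window holds no annotated exon, but it lies inside the Mmrn1 gene of GENCODE, whose start is further upstream, at 60924976. Whether the window acts as a promoter was not tested. The windows of Emilin1 and of the other Emilin2 start overlapped annotated exons and are not shown. A match describes the letters only, and binding was not measured.

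Between 11595104 and 30909990 reads were assigned to genes per library. Counts were compared with edgeR's quasi-likelihood test after TMM scaling, which corrects library size for composition, and p-values were Benjamini-Hochberg adjusted over 15419 genes that passed the low-count filter. Levels are TMM-scaled CPM, the counts relative to library size, and a log2 fold change is Mmrn1-high over Mmrn1-low. The transcriptomes differed widely. Of the genes tested, 61.2% were called at an adjusted p under 0.05, 30.7% being higher and 30.5% lower in the Mmrn1-high group, and the median log2 fold change was 0.005. The libraries of the groups did not overlap for 67.8% of genes, with Mmrn1-high above Mmrn1-low for 34.1% and below it for 33.7%. A call on a single member is therefore an ordinary event in this comparison. Of the 4 members, 3 passed the low-count filter: 1 was called higher, 1 lower and 1 was not called.

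Mmrn1, the gene whose reporter names the groups, had 8.82, 9.80 and 11.5 CPM in Mmrn1-high replicates 1 to 3, against 5.65, 5.61 and 5.82 CPM in Mmrn1-low replicates 1 to 3. The groups did not overlap, and the Mmrn1-high libraries were more spread than the Mmrn1-low ones. The fold change was 1.76 (log2 0.82 ± 0.12 SE, edgeR quasi-likelihood adjusted p = 4.85e-04). This value checks the labels and is not a finding. Its size was modest beside the rest of the transcriptome, since 15.1% of tested genes, 2324 in number, had a larger log2 fold change. The raw counts behind it were 108, 318 and 171 reads in Mmrn1-high libraries and 89, 76 and 167 reads in Mmrn1-low libraries. The coefficient of variation was 13.3% between Mmrn1-high libraries, where counting noise gives 7.73%, and 1.97% between Mmrn1-low libraries, where counting noise gives 10.0%. The narrow spread of the Mmrn1-low group thus lay below the counting error. An effect of the reporter allele on the reads counted for Mmrn1 was not tested.

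Emilin1, the elastic-fibre member, fell in Mmrn1-high cells. It had 175, 176 and 188 CPM in Mmrn1-high replicates 1 to 3, against 359, 325 and 333 CPM in Mmrn1-low replicates 1 to 3. Every Mmrn1-high library lay well below every Mmrn1-low library. The level was 1.89-fold lower (log2 fold change -0.92 ± 0.05 SE, edgeR quasi-likelihood adjusted p = 1.22e-06). A lower log2 fold change was seen for 912 genes, 5.91% of those tested. That share counts the lower side only, and the upper side was wider, with 15.1% of tested genes above the 0.82 of Mmrn1. In bulk RNA, fewer cells of a type and less RNA per cell cannot be told apart.

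Emilin2 was not called. It had 185, 214 and 199 CPM in Mmrn1-high replicates 1 to 3, against 214, 194 and 206 CPM in Mmrn1-low replicates 1 to 3. The groups overlapped, and the highest library of each had 214 CPM. The log2 fold change was -0.04 ± 0.06 SE (edgeR quasi-likelihood adjusted p = 0.607), and limma voom gave a 95% interval of -0.17 to 0.10. A log2 fold change of that size or smaller was seen for 5.87% of tested genes. Its sign turned with the scaling: with library size alone the log2 fold change was 0.11 ± 0.06 SE (adjusted p = 0.127), where the median log2 fold change of all genes was 0.154.

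Mmrn2, the endothelial multimerin, was near the detection limit. It had 0, 0 and 0 reads in Mmrn1-high replicates 1 to 3, against 3, 6 and 11 reads in Mmrn1-low replicates 1 to 3. All 20 reads of the study came from Mmrn1-low libraries, at 0.327 CPM over their summed totals (95% Poisson interval 0.200 to 0.505, counting error only). Set against a floor of 3 reads over the Mmrn1-high group, which is 0.0529 CPM, this estimate was 6.19-fold higher. That ratio leaves out the counting error of the 20 reads and is not a guaranteed minimum. It rests on the deepest Mmrn1-high library and was 2.82-fold without Mmrn1-high replicate 2. Mmrn2 failed the low-count filter, and without the filter it had an edgeR quasi-likelihood adjusted p of 0.00203 among 27171 genes, of which 16.1% were called lower. Such a pattern was not particular to it, as 25 genes had at least 20 reads, all of them in Mmrn1-low libraries, and 15 had at least 20 reads, all in Mmrn1-high libraries.

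**Figure D1:**
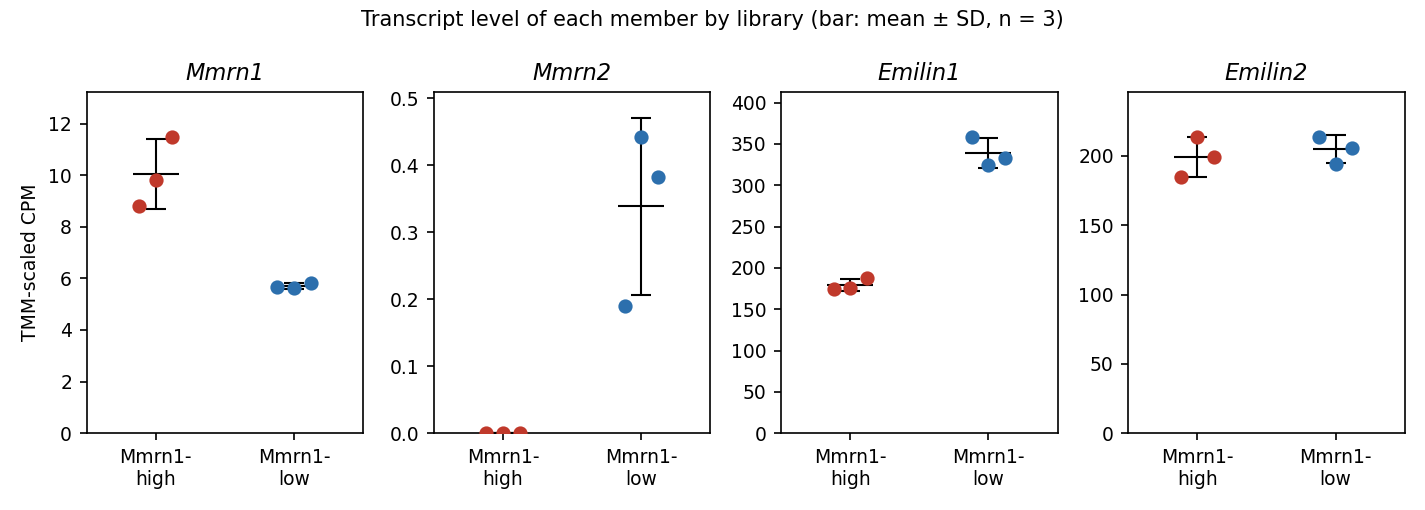
TMM-scaled CPM (vertical axes, starting at 0, a different scale in each panel) of the 4 members in the Mmrn1-high (red) and Mmrn1-low (blue) libraries, with bars for mean and SD of 3 libraries. Mmrn1 was 10.0 ± 1.33 CPM in Mmrn1-high and 5.69 ± 0.112 CPM in Mmrn1-low cells, Mmrn2 was at 0 in every Mmrn1-high library, Emilin1 did not overlap between groups, and Emilin2 did.

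**Figure D2:**
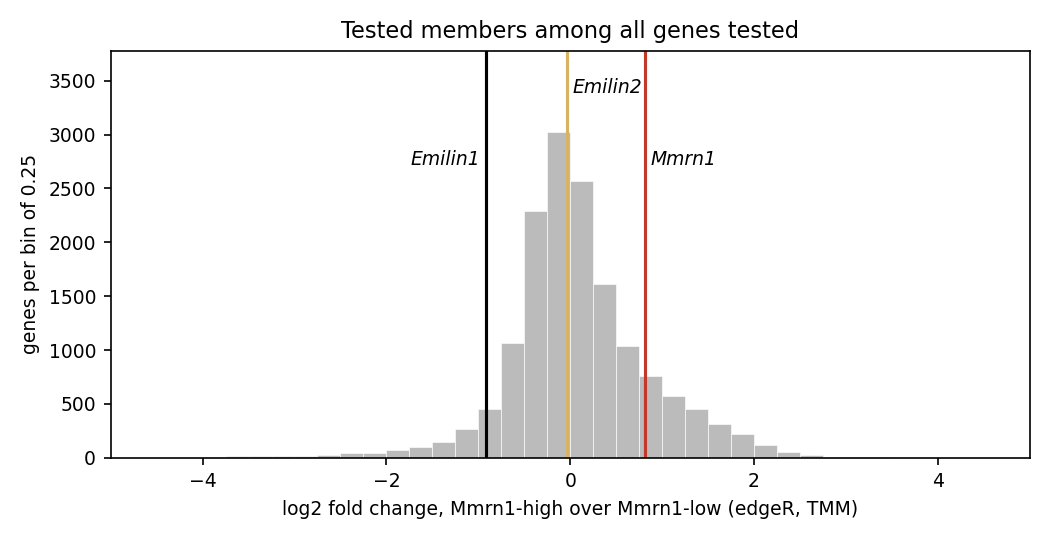
Distribution of log2 fold changes (horizontal axis, Mmrn1-high over Mmrn1-low) over 15419 tested genes, counted in bins of 0.25 (vertical axis), with vertical lines at the 3 tested members. Emilin1 (-0.92) lay in the lower tail, Emilin2 (-0.04) near the centre and Mmrn1 (0.82) on the upper shoulder.

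The relative levels of the members were read from the authors' FPKM values, which divide by gene length. In Mmrn1-high cells Emilin1 stood at 23.2 ± 0.891 FPKM and Emilin2 at 22.7 ± 1.56 FPKM (SD, n = 3), so these neighbours in the order did not differ beyond their spread. Mmrn1 followed at 1.44 ± 0.186 FPKM, and Mmrn2 was at 0. In Mmrn1-low cells the order was Emilin1 at 39.4 ± 2.01 FPKM, Emilin2 at 21.9, 19.9 and 21.2 FPKM, Mmrn1 at 0.735 ± 0.016 FPKM and Mmrn2 at 0.0778 ± 0.0304 FPKM, each clear of the next. Even in the cells named for it, Mmrn1 was thus a minor member, with 2.82% to 3.38% of the summed FPKM in Mmrn1-high libraries, against 1.13% to 1.24% in Mmrn1-low libraries. It lay at the 21.7th to 25.9th percentile of the FPKM of all tested genes in Mmrn1-high libraries, and at the 19.0th to 19.6th in Mmrn1-low libraries.

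**Figure D3:**
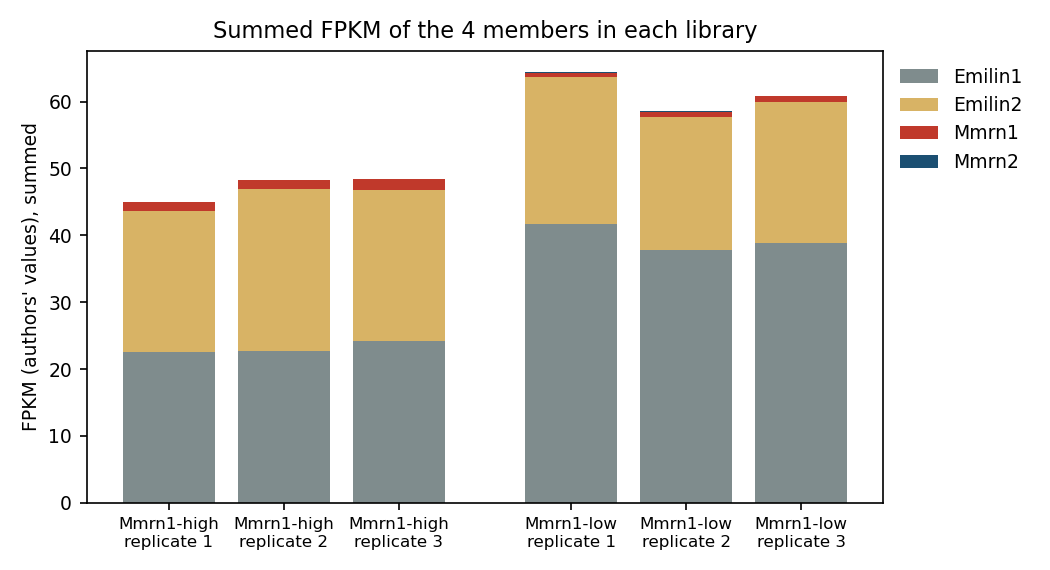
Stacked bars of the authors' FPKM (vertical axis, from 0) of the members in each library, with the 3 Mmrn1-high libraries on the left and the 3 Mmrn1-low libraries on the right. The sum was 47.2 ± 1.93 FPKM in Mmrn1-high and 61.3 ± 2.93 FPKM in Mmrn1-low cells (SD, n = 3), and the Emilin1 segment is shorter in every Mmrn1-high library.

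Ratios within a library do not depend on library scaling. The Emilin1 to Emilin2 ratio of FPKM was 1.03 ± 0.0779 in Mmrn1-high and 1.88 ± 0.0404 in Mmrn1-low cells (SD, n = 3). On the log2 scale it was 0.10, -0.10 and 0.10 in Mmrn1-high replicates 1 to 3, against 0.93, 0.92 and 0.87 in Mmrn1-low replicates 1 to 3. The difference was -0.87, at an exact two-sided permutation p of 0.1, which is the smallest that 3 against 3 libraries can give. Emilin1 exceeded Mmrn1 14.8 to 17.8 times in Mmrn1-high libraries and 51.5 to 57.3 times in Mmrn1-low libraries, a log2 difference of 1.72 in the Mmrn1 to Emilin1 ratio (exact permutation p = 0.1). The Mmrn1 to Emilin2 ratio differed by 0.85 on the log2 scale (exact permutation p = 0.1). Because the Mmrn1 reporter defines the groups, the Mmrn1 part of both ratios repeats the check of the labels and is not a finding. None of the 3 could pass the threshold in this design, and p adjusted over the 3 ratios was 0.1 for each, though the groups did not overlap in any of them. With Mmrn2 listed at 0 in every Mmrn1-high library, its ratio to Mmrn1 could not be formed.

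Among the other EMI-domain genes, Emid1, which encodes a secreted protein with EMI and collagen-like domains, rose in Mmrn1-high cells. It had 16.6, 13.3 and 20.1 CPM in Mmrn1-high replicates 1 to 3, against 9.26, 8.12 and 7.11 CPM in Mmrn1-low replicates 1 to 3. The groups did not overlap, and the log2 fold change was 1.03 ± 0.17 SE (edgeR adjusted p = 0.00127). Emilin3 and the collagen gene Col26a1 had no read in any library. Across the 7 EMI-domain genes of the mouse named here, therefore, Mmrn1 and Emid1 were higher, Emilin1 was lower, and the others were uncalled, too low to test or at 0.

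Genes for what multimerin 1 binds in platelets, and for platelet adhesion receptors, were looked up next. Of 7 listed, 6 were tested, 3 rose and 1 fell, where 30.7% of all genes were higher and 30.5% lower. The counts of such small lists are read against these shares, here and for the lists that follow. Their median log2 fold change was 0.445, beside 0.005 for all genes. F5, which encodes factor V, the cargo that multimerin 1 carries in platelets, fell: it had 11.9, 13.0 and 12.5 CPM in Mmrn1-high replicates 1 to 3, against 25.6, 23.1 and 23.9 CPM in Mmrn1-low replicates 1 to 3. The groups were far apart, and the log2 fold change was -0.95 ± 0.07 SE (edgeR adjusted p = 1.36e-05). F5 thus moved opposite to Mmrn1 and in the direction of Emilin1. It shares 262 of its 7430 exon bases with a non-coding gene on the other strand, and the strand setting of the counting is not stated.

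The platelet fibrinogen receptor subunits Itga2b (log2 fold change 1.49 ± 0.03 SE, edgeR adjusted p = 2.00e-08) and Itgb3 (0.89 ± 0.06 SE, adjusted p = 7.66e-06) rose. Gp1ba, a subunit of the receptor for von Willebrand factor, rose as well (1.02 ± 0.21 SE, edgeR adjusted p = 0.00328), at 2.72 ± 0.416 CPM in Mmrn1-high and 1.38 ± 0.255 CPM in Mmrn1-low cells. Vwf, the gene of von Willebrand factor, stood at 8.64 ± 1.02 CPM in Mmrn1-high and 8.65 ± 1.35 CPM in Mmrn1-low cells (SD, n = 3, edgeR adjusted p = 0.987). Gp6, the platelet collagen receptor, had no read. Itgav, the alpha subunit of the vitronectin receptor, was decided by 1 library: it had 11.8, 12.6 and 28.8 CPM in Mmrn1-high replicates 1 to 3, against 18.1, 15.8 and 18.7 CPM in Mmrn1-low replicates 1 to 3. Its log2 fold change was 0.004 ± 0.395 SE over all libraries and -0.52 without Mmrn1-high replicate 3 (edgeR adjusted p = 0.00428).

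The wider list of alpha-granule cargo and biogenesis, of 13 genes, had 5 higher and 3 lower among 12 tested, with a median of 0.045. Selp (P-selectin, 1.21 ± 0.11 SE, edgeR adjusted p = 1.38e-04), Gfi1b, a megakaryocyte and erythroid repressor (1.02 ± 0.11 SE, adjusted p = 6.91e-05), and Nbeal2, needed for granule formation (0.38 ± 0.05 SE, adjusted p = 2.60e-04), rose. Clu, encoding the chaperone clusterin, fell 9.33-fold, to 5.46 ± 0.480 CPM in Mmrn1-high cells, against 51.3 ± 2.67 CPM in Mmrn1-low cells (edgeR adjusted p = 4.04e-08, SD, n = 3). The other lower genes of the list were F5 and Tgfb1. Beside these values, 7 of 9 tested megakaryocyte and platelet markers, of 13 listed, were higher with Mmrn1 and 0 lower. The summed level of the list was 336 to 349 CPM in Mmrn1-high and 140 to 151 CPM in Mmrn1-low libraries. Most of it came from Itga2b (177 CPM in Mmrn1-high and 63.2 CPM in Mmrn1-low cells) and Selp (101 CPM in Mmrn1-high and 43.8 CPM in Mmrn1-low cells). Gp9 (6.38 CPM in Mmrn1-high and 2.28 CPM in Mmrn1-low cells), Gp5 (5.70 CPM in Mmrn1-high and 2.19 CPM in Mmrn1-low cells) and Treml1 (1.52 CPM in Mmrn1-high and 0.817 CPM in Mmrn1-low cells), genes of platelet surface or granule receptors, were among the higher ones. The platelet chemokine gene Pf4 was not called, at 2.12 ± 0.215 CPM in Mmrn1-high and 2.25 ± 0.352 CPM in Mmrn1-low cells, and Ppbp, which was not tested, averaged 0.161 CPM in Mmrn1-high and 0.236 CPM in Mmrn1-low cells. Stem cell markers also moved with Mmrn1: 11 of 12 were higher and 0 lower, with sums of 682 to 719 CPM in Mmrn1-high and 428 to 451 CPM in Mmrn1-low libraries. Most of these sums came from Kit (395 CPM in Mmrn1-high and 329 CPM in Mmrn1-low cells). The part of either marker list in the values of Mmrn1 was not tested.

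Of 5 genes for partners of multimerin 2, 2 passed the low-count filter, with 1 higher and 1 lower. Cd93, the endothelial and stem-cell lectin receptor for multimerin 2, was abundant and rose slightly, to 294 ± 3.93 CPM in Mmrn1-high cells, against 240 ± 3.14 CPM in Mmrn1-low cells (log2 fold change 0.29 ± 0.03 SE, edgeR adjusted p = 3.49e-05). Vegfa, the angiogenic factor that multimerin 2 sequesters, fell: it had 13.6, 12.3 and 13.2 CPM in Mmrn1-high replicates 1 to 3, against 42.6, 44.9 and 43.9 CPM in Mmrn1-low replicates 1 to 3. The groups were separated by a wide gap (log2 fold change -1.75 ± 0.065 SE, edgeR adjusted p = 2.36e-07). Clec14a, Cd248 and Kdr, genes of endothelial or pericyte receptors, were each under 1 CPM in every library.

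Endothelial markers stood beside the scarcity of Mmrn2 as follows. Of 12 listed, 10 were tested, 7 were higher and 2 lower in the Mmrn1-high group. Summed levels were 319 to 339 CPM in Mmrn1-high and 194 to 197 CPM in Mmrn1-low libraries, most of it from Pecam1 and Eng. The lower markers were those of the VEGF receptor Flt1, at 1.31, 2.03 and 0.871 CPM in Mmrn1-high replicates 1 to 3, against 20.6, 19.8 and 19.6 CPM in Mmrn1-low replicates 1 to 3, and of the sinusoidal scavenger receptor Stab2. Stab2 had 0, 11 and 5 reads in Mmrn1-high libraries, against 31, 25 and 53 reads in Mmrn1-low libraries. These 2 markers shared the direction of Mmrn2. The 7 higher markers had the opposite direction. They were Emcn (5.23 CPM in Mmrn1-high and 1.69 CPM in Mmrn1-low cells), Plvap (2.82 CPM in Mmrn1-high and 1.79 CPM in Mmrn1-low cells), Pecam1, Tek, Esam, Eng and Tie1, several of which blood stem cells also make. The endothelial cadherin Cdh5 stood at 0.550 ± 0.248 CPM in Mmrn1-high and 0.787 ± 0.163 CPM in Mmrn1-low cells. Whether endothelial cells supplied the Mmrn2 reads was not tested.

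Of 10 genes for EMILIN receptors and pro-TGF-beta processing, 8 were tested, 6 rose and 1 fell, with a median of 0.396. Among the integrin subunits that bind EMILIN-1, Itga9 rose to 6.95 ± 0.587 CPM in Mmrn1-high cells, against 2.80 ± 0.340 CPM in Mmrn1-low cells (log2 fold change 1.31 ± 0.135 SE, edgeR adjusted p = 6.90e-05). Itga4 (0.145 ± 0.03 SE, edgeR adjusted p = 0.00305) and Itgb1 (0.095 ± 0.03 SE, adjusted p = 0.0299) rose slightly. These amounts are smaller than the median shift of 0.148 between the library size and TMM scalings. With library size alone that shift is upward, in the direction of both rises. Tgfb1, whose precursor EMILIN-1 restrains, fell by 0.22 on the log2 scale (± 0.025 SE, edgeR adjusted p = 1.30e-04), to 387 ± 3.14 CPM in Mmrn1-high cells, against 451 ± 7.53 CPM in Mmrn1-low cells. With FPKM values of all genes as log2(FPKM + 1) the Tgfb1 difference was -0.07 and not called (limma adjusted p = 0.0648). Furin, the convertase of that precursor, rose (0.21 ± 0.05 SE, edgeR adjusted p = 0.00726), as did Ltbp3, which holds latent TGF-beta in the matrix, by 2.79-fold (log2 1.48 ± 0.07 SE, adjusted p = 8.94e-07). Tnfrsf10b, the mouse TRAIL death receptor, rose (0.59 ± 0.16 SE, edgeR adjusted p = 0.0137). It was not called without Mmrn1-high replicate 2 (adjusted p = 0.0550).

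**Figure D4:**
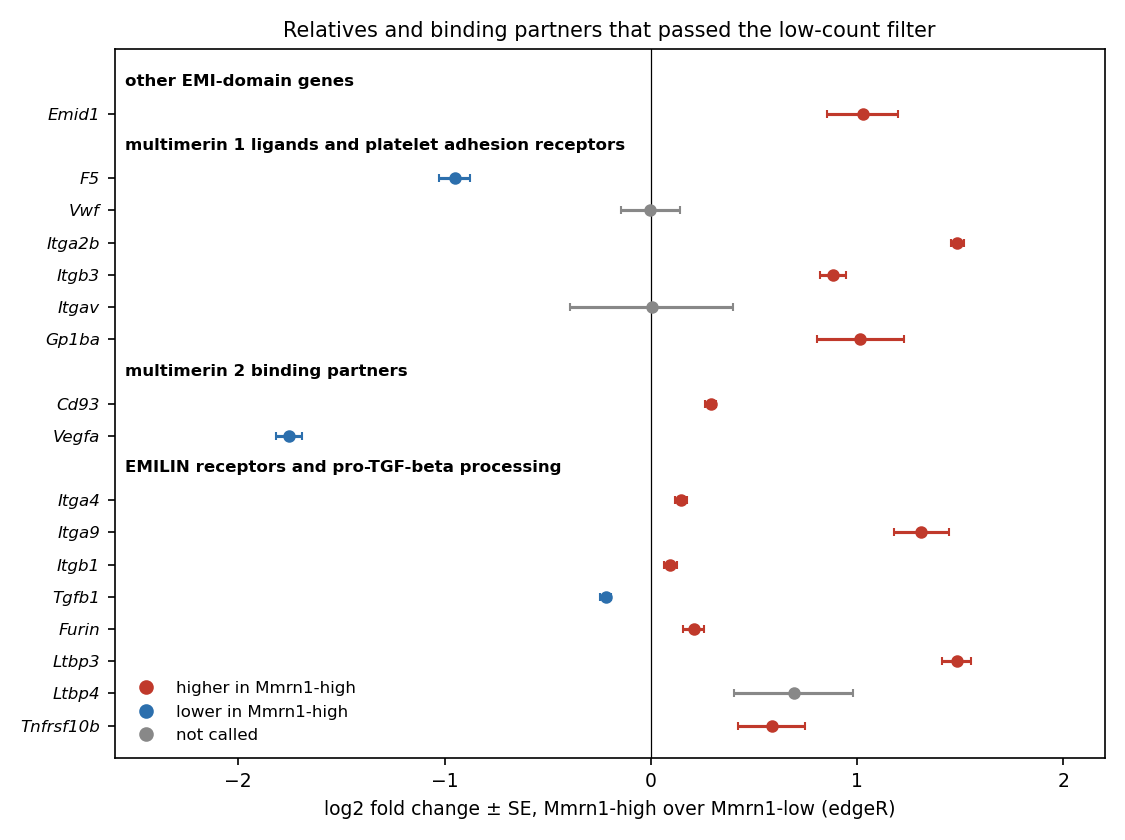
Log2 fold change with SE (horizontal axis, Mmrn1-high over Mmrn1-low) of the tested genes of 4 lists (other EMI-domain genes, multimerin 1 ligands with platelet adhesion receptors, multimerin 2 partners, and EMILIN receptors with pro-TGF-beta processing), with colour for the edgeR call. Among the genes plotted, Itga2b, Ltbp3 and Itga9 lay furthest to the right, and Vegfa and F5 furthest to the left.

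Elastic fibre genes, the structure that EMILIN-1 joins, were barely detected. Of 12 listed, 4 were tested, 0 rose and 1 fell, with a median of 0.053, and the summed level was 6.94 to 7.55 CPM in Mmrn1-high and 6.76 to 8.19 CPM in Mmrn1-low libraries. The lower gene was Efemp2, which encodes fibulin-4, at 0.300 ± 0.123 CPM in Mmrn1-high and 1.01 ± 0.112 CPM in Mmrn1-low cells (log2 fold change -1.62 ± 0.33 SE, edgeR adjusted p = 0.00294). The microfibril genes Mfap4 and Mfap5 had no read. Emilin1 alone, at 180 ± 7.35 CPM in Mmrn1-high and 339 ± 18.0 CPM in Mmrn1-low cells, exceeded the sum of all 12 in every library.

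Markers of other cells moved beside Emilin1. Of 12 macrophage markers, 10 were lower and 2, Cd68 and Csf1r, higher, with a median of -2.25. Summed levels were 167 to 178 CPM in Mmrn1-high and 286 to 298 CPM in Mmrn1-low libraries. Most of the Mmrn1-high sum came from the 2 higher markers. Csf1r had 104 CPM in Mmrn1-high and 85.3 CPM in Mmrn1-low cells, and Cd68 had 33.8 CPM in Mmrn1-high and 24.7 CPM in Mmrn1-low cells. The lower ones included Vcam1, at 5.57 ± 0.0556 CPM in Mmrn1-high and 81.9 ± 1.23 CPM in Mmrn1-low cells. Of 12 monocyte and neutrophil markers, 9 were higher and 2, Ly6c2 and Csf3r, lower. Their summed level was the largest of the marker lists, at 3700 to 3900 CPM in Mmrn1-high and 2790 to 2960 CPM in Mmrn1-low libraries. Most of it came from S100a9, S100a8 and Lyz2. Stromal markers had 3 higher and 3 lower of 6 tested, of 10 listed, with sums of 139 to 148 CPM in Mmrn1-high and 56.1 to 58.7 CPM in Mmrn1-low libraries, most of it from Pdgfrb. The 3 lower stromal markers, in the direction of Emilin1, were Col1a1 (0.657 CPM in Mmrn1-high and 2.08 CPM in Mmrn1-low cells), Col1a2 (1.56 CPM in Mmrn1-high and 2.86 CPM in Mmrn1-low cells) and the chemokine gene Cxcl12 (1.09 CPM in Mmrn1-high and 2.92 CPM in Mmrn1-low cells). The untested stromal genes Pdgfra, Lepr, Dcn and Col3a1 averaged from 0.0103 CPM (Dcn) to 0.0817 CPM (Lepr) in Mmrn1-high cells, and from 0.0560 CPM (Pdgfra) to 0.169 CPM (Col3a1) in Mmrn1-low cells. The part of these cells in the Emilin1 and Emilin2 values was not tested.

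Among the members' genomic neighbours, calls went in both directions around Mmrn2, Emilin1 and Emilin2, as they did among all genes, of which 30.7% were higher and 30.5% lower. Protein-coding genes within 500 kb of a member were taken from the table. Near Mmrn1, the gene Ccser1, 191 kb beyond the far end of Mmrn1, rose: it had 2.53, 3.36 and 3.08 CPM in Mmrn1-high replicates 1 to 3, against 0.888, 0.443 and 1.01 CPM in Mmrn1-low replicates 1 to 3. The groups did not overlap (log2 fold change 1.87 ± 0.26 SE, edgeR adjusted p = 4.16e-04). Next to Mmrn2 lay the gamma-synuclein gene Sncg, with no read in any library, and Bmpr1a, a BMP receptor 6.45 kb away, which was not called (0.14 ± 0.11 SE, adjusted p = 0.313). Of the 22 neighbours of Mmrn2, 5 were tested, 1, Gprin2, was higher and 1, Wapl, a cohesin release factor, was lower. Gprin2 was not called by DESeq2 (adjusted p = 0.0997), nor Wapl in the FPKM fits (limma adjusted p from 0.0520 to 0.0923).

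Of 35 neighbours of Emilin1, 21 were tested, 2 were higher and 9 lower, and the median was -0.183 on the log2 scale. Among all genes 61.2% were called, 30.7% being higher and 30.5% lower. Counts this small are not read as a result about the neighbours. Khk, the ketohexokinase gene only 0.154 kb from Emilin1, was not called, with 35.5, 39.4 and 36.1 CPM in Mmrn1-high replicates 1 to 3, against 39.3, 32.8 and 32.4 CPM in Mmrn1-low replicates 1 to 3. Its groups overlapped through Mmrn1-low replicate 1, without which Khk was called higher (log2 fold change 0.19, edgeR adjusted p = 0.0477). On the other side Ost4, a subunit of the oligosaccharyltransferase 5.61 kb away, fell (-0.58 ± 0.05 SE, edgeR adjusted p = 1.93e-05), while Agbl5, a tubulin deglutamylase 6.44 kb away, rose (0.41 ± 0.06 SE, adjusted p = 6.22e-04). Ost4 and Agbl5 share 677 exon bases on opposite strands, and the strand setting of the counting is not stated, so their reads are uncertain. Tmem214 (-0.97 ± 0.07 SE) and Preb (-0.30 ± 0.04 SE) were also lower, and Mapre3 (1.43 ± 0.32 SE) higher. Tmem214 shares 1480 and Preb 1575 exon bases with genes on the other strand. Around Emilin2, 10 of 15 neighbours were tested, 2 higher and 4 lower. Lpin2, a phosphatidate phosphatase gene 2.35 kb from Emilin2, had 88.6, 88.9 and 88.3 CPM in Mmrn1-high replicates 1 to 3, against 36.7, 39.2 and 73.3 CPM in Mmrn1-low replicates 1 to 3. It was not called (0.82 ± 0.305 SE, edgeR adjusted p = 0.0731), and was called by DESeq2 (adjusted p = 0.0212), with library size alone (edgeR, 0.0474) and in the FPKM fits (limma, 0.0136 to 0.0284). Without Mmrn1-low replicate 3 its log2 fold change was 1.23 (edgeR adjusted p = 2.48e-06). Myom1, a sarcomere gene, was the higher neighbour with the weakest call (1.31, edgeR adjusted p = 0.0431), which was lost without Mmrn1-low replicate 2 (0.0784) or any Mmrn1-high library (0.0555 to 0.130). With all libraries kept, the Myom1 call was also lost by DESeq2 (0.0541), voom (0.0537), without a filter (0.0548), with the replicate block (0.104) and in the unfiltered FPKM fit (0.0581). Myom1 shares 207 of its 10459 exon bases with Myl12a on the other strand, so its reads are uncertain. It had 2 to 62 reads per library, where Myl12a had 1657 to 4356. Smchd1, on the other side, fell (-0.36 ± 0.04 SE, edgeR adjusted p = 9.30e-05).

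**Figure D5:**
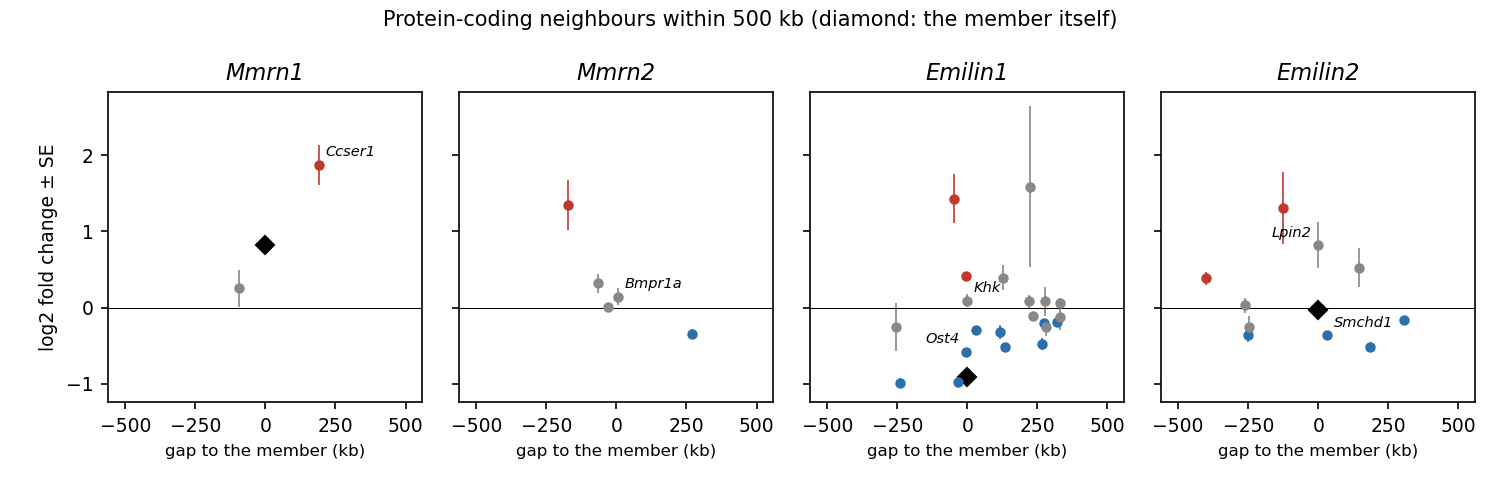
Log2 fold change with SE (vertical axis) of tested protein-coding genes within 500 kb of each member, against the gap to it in kb (horizontal axis, negative toward lower coordinates), with the member as a diamond except Mmrn2, which was not tested. Red marks genes called higher and blue genes called lower in Mmrn1-high cells. Khk and Ost4 lie nearest to Emilin1, and Ccser1 is the highest point around Mmrn1.

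The genes whose profile over the 6 libraries was most like a member were found by the Euclidean distance between mean-centred log2 CPM values. For Mmrn1 these were Zc3h12a (a ribonuclease, distance 0.0997), Prkce (protein kinase C epsilon, 0.112), Spag1 (0.124), Nudt7 (a peroxisomal hydrolase, 0.140) and Otub2 (a deubiquitinase, 0.158), with log2 fold changes from 0.77 to 0.86. For Emilin1 they included Palm (paralemmin, 0.0555), Rpn2 (an oligosaccharyltransferase subunit, 0.0674), Nuf2 (a kinetochore protein, 0.0778) and Rab44 (0.0788), with log2 fold changes from -0.945 to -0.914. For Emilin2 the nearest were Arl5a (0.0626), Cyth4, Asb7, Rdh13 and Eml4 (0.0802), of which 0 were called. With 6 libraries in 2 groups, genes with a like group difference come out as near.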

How the data were processed

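The authors deposited 1 table with raw read counts per gene and FPKM values, per the file headers. Listed without roles in the submitters' processing notes are HISAT2, StringTie, edgeR, CASAVA 1.8 and the build GRCm38. The sources used here do not give the strand setting of counting. Stranded paired-end libraries were made from poly-A RNA, per the labels' protocols. The length behind the deposited FPKM (8156 bases for Emilin1, against 4937 exon bases in GENCODE M21) affects levels between genes.

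Counts were tested with edgeR 4.0.16 (R 4.3.3) by the robust quasi-likelihood test with TMM, filterByExpr and group as the only term. Each SE was derived from the fold change and its F statistic. A count of 3 is 0.0971 to 0.259 CPM. The script was tested on simulated counts. Members, lists and alternatives were chosen with earlier results of these data known. Named genes were up to 6 per list by adjusted p (whole lists of up to 7), nearest and called neighbours, and 5 alike genes per member; some of these are not reported here. Of the 87 named list and neighbour genes, 25 share exon bases with another gene. Alternatives used limma 3.58.1 and DESeq2 1.42.0.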

Additional observations from a re-analysis of the deposited data

How the results depend on the processing

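Mmrn1 and Emilin1 kept their direction and call under all 17 alternatives run: DESeq2, scaling by relative log expression or by library size, no filter or one of 5 CPM, limma voom, the replicate block, 3 FPKM fits, each library left out and an adjusted p under 0.01. With a library left out, Mmrn1 ranged from 0.71 to 0.91 and Emilin1 from -0.95 to -0.86 in log2 fold change. Emilin2 was not called under any, but its sign was positive with library size alone (0.11), the 5 CPM filter (0.012), log2(FPKM + 1) with and without a filter (0.10 each) and log2(FPKM + 0.1) (0.11). It ranged from -0.076 to 0.026 with a library left out. The difference of Mmrn2 from its floor ranged from -2.85 to -1.49 on the log2 scale (-1.49 without Mmrn1-high replicate 2).

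Genes called lower numbered 3019, 3011 and 3020 in the FPKM fits (pseudocount 1, 0.1, and 1 without a filter), against 4701. With library size alone 6201 were higher and 3193 lower. With a library left out, 4399 to 4576 were higher and 4185 to 4415 lower. The within-library differences ranged from -0.91 to -0.81 (Emilin1 to Emilin2), 1.66 to 1.79 (Mmrn1 to Emilin1) and 0.75 to 0.91 (Mmrn1 to Emilin2).

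Same-numbered libraries deviated from their group means with correlations of 0.0426, -0.0785 and 0.0286. Libraries of unlike number gave -0.0927 to 0.0715. With 3 libraries a group and counting noise in each, these values cannot decide whether a shared number marks a shared mouse or sort. With the replicate block the log2 fold changes were 0.82 for Mmrn1, -0.91 for Emilin1 and -0.04 for Emilin2, and 4476 genes were higher and 4447 lower.

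Genes with little difference changed sign. Library size alone gave 0.14 for Vwf, 0.07 for Fbn1, 0.11 for C1qtnf12, 0.10 for Arl5a, 0.063 for Asb7, 0.14 for Rdh13 and 0.10 for Eml4. The 5 CPM filter gave 0.045 for Vwf, 0.008 for C1qtnf12, 0.006 for Arl5a, 0.037 for Rdh13 and 0.002 for Eml4. Without a filter Vwf was 0.008 and Rdh13 0.003, and with the replicate block Vwf was 0.006 and Itgav -0.079. Voom gave -0.157 for Itgav. The filtered FPKM fits gave, at pseudocounts 1 and 0.1, 0.099 and 0.106 for C1qtnf12, 0.095 and 0.101 for Arl5a, 0.049 and 0.060 for Asb7, 0.097 and 0.125 for Rdh13 and 0.082 and 0.098 for Eml4. Unfiltered FPKM at pseudocount 1 gave 0.045 for Vwf, 0.008 for Fbn1, 0.099 for C1qtnf12, 0.095 for Arl5a, 0.049 for Asb7, 0.097 for Rdh13 and 0.082 for Eml4. With a library left out, Vwf ranged from -0.102 to 0.138, Itgav from -0.524 to 0.237, Fbln1 from 0 to 0.464, Fbn1 from -0.197 to 0.015, Arl5a from -0.076 to 0.001, Cyth4 from -0.020 to 0.070 and Rdh13 from -0.064 to 0.059. Library size alone moved the log2 fold changes of all genes up by a median of 0.148 against TMM. The cause of each sign change was not tested. For Mmrn2, counting noise alone gives a coefficient of variation of 40.8% between Mmrn1-low libraries.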

Other observations

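Mmrn1 is one of the genes of a stemness score for human acute myeloid leukaemia, and 14 mouse counterparts of its other genes were looked up. Of these, 12 were tested, 8 were called higher in the Mmrn1-high group, where 30.7% of all genes were, and 0 lower. These counts take no account of how the score weighs each gene, and the score itself was not computed. Their median log2 fold change was 0.624, beside 0.005 for all genes. Socs2, a feedback inhibitor of cytokine signalling, stood at 4.40 ± 0.786 CPM in Mmrn1-high and 1.04 ± 0.210 CPM in Mmrn1-low cells (SD, n = 3, edgeR adjusted p = 7.57e-05). Adgrg1, an adhesion receptor of stem cells, rose 2.64-fold (edgeR adjusted p = 8.51e-07), and Nynrin 2.17-fold (adjusted p = 2.47e-06). Nynrin shares 4245 of its 7518 exon bases with a non-coding gene on the other strand, so its value is uncertain. The methyltransferase gene Dnmt3b rose 1.48-fold (edgeR adjusted p = 7.65e-06).

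Outside the family, 25 genes of C1q-like domain proteins were looked up, of which 10 had no read and 6 were tested, with 2 higher and 3 lower. The lower genes were C1qa, C1qb and C1qc, the subunits of complement C1q made by macrophages. C1qc stood at 0.894 ± 0.219 CPM in Mmrn1-high and 10.5 ± 0.867 CPM in Mmrn1-low cells (SD, n = 3, edgeR adjusted p = 7.72e-07). The higher genes were Caprin2, a regulator of Wnt signalling (2.09-fold, edgeR adjusted p = 2.25e-04), and C1qtnf6 (1.17-fold, adjusted p = 0.0147). C1qtnf6 was not called without Mmrn1-low replicate 2 (edgeR adjusted p = 0.0502) or by DESeq2 (adjusted p = 0.0707).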
